A study of Mus musculus with 2 samples.

Results

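The genes described here encode 3 families of proteins that take fatty acids into metabolism: the cytosolic fatty acid binding proteins (Fabp3, Fabp4, Fabp5 and Fabp7), the membrane transport proteins of the SLC27 family (Slc27a1 and Slc27a4) and the long-chain acyl-CoA synthetases (Acsl1, Acsl3, Acsl4 and Acsl5). They are a list of 10 named genes out of 25661 named genes and unnamed loci in the files, chosen by their function with earlier results of these data known. All 10 were found by transcript structure. The data are RNA sequencing of total RNA from cultured bone marrow MSCs (mesenchymal stem/progenitor cells). The mice were of strain CD-1 and 3 months old, and the cells of both groups grew in DMEM with 10% fetal bovine serum. There was 1 library of PPARg-deficient cells (genotype label PPAR KO) and 1 library of PPARg-floxed cells (label PPAR-flox), so no difference below has a replicate check and no test was possible. What deleted Pparg, which exons were floxed and how many animals each library came from are not stated in the sources at hand.

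Fatty acids cross the plasma membrane by diffusion and with the help of membrane proteins, SLC27 proteins among them. Acyl-CoA synthetases join them to coenzyme A, which traps them in the cell and opens the way to storage, membrane synthesis or oxidation. FABPs are small barrel-shaped carriers that hold a fatty acid in the cytosol and bring it to enzymes, membranes and nuclear receptors. In fat cells, Fabp4 (the adipocyte FABP, also called aP2) and Acsl1 are well known targets of PPARg, the nuclear receptor that drives fat cell formation.

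Levels are FPKM, that is, fragments normalised for transcript length and library size, summed over the transcripts of a gene. Pparg itself was at 1.39 FPKM in deficient cells and 6.86 FPKM in floxed cells. Its transcript Pparg-204 was near 0 in deficient cells and at 4.69 FPKM in floxed cells. Pparg-202 was at 0.96 FPKM in deficient cells (deposited bounds 0.38 to 1.53) and 2.17 FPKM in floxed cells (1.21 to 3.13), bounds that overlap. A form with no annotated match went the other way, at 0.43 FPKM in deficient cells (0 to 0.89) and near 0 in floxed cells. These forms differ only in the first exon, so only reads that reach it can tell them apart. Without the floxed exons known, the Pparg sums may include exons that were not deleted. The libraries differed in scale. Of 10631 genes kept, each of at least 1 FPKM in at least 1 library, the median gene was 1.81-fold higher in deficient cells, a shift of 0.86 on the log2 scale. Log2 folds below are therefore given as deposited and relative to that median gene, with a pseudocount of 1 FPKM. Coverage times transcript length summed to 1730 megabases in deficient cells and 1380 megabases in floxed cells, and transcripts under 300 nt held 81.7% and 61.6% of all FPKM. The part of these differences in the scale was not tested. Of 10 stromal markers 7 were kept, 1 at least 2-fold higher and 1 lower relative to the median gene (3 and 0 as deposited), with a sum of 1351 FPKM in deficient cells and 702 FPKM in floxed cells. The higher one was Cxcl12, at 318 FPKM in deficient cells and 60.4 FPKM in floxed cells, and the lower one Nt5e, at 1.01 and 1.86 FPKM. Pdgfra, at 6.82 FPKM in deficient cells and 1.37 FPKM in floxed cells, and Pdgfrb, at 74.0 and 21.8 FPKM, were at least 2-fold higher as deposited only. Each had a relative log2 fold of 0.86. Ly6a was at 841 FPKM in deficient cells and 530.4 FPKM in floxed cells, and Vcam1 at 60.2 and 59.9 FPKM. Eng was at 0 in deficient cells and 0.03 FPKM in floxed cells, and Thy1 at 0.42 FPKM and 0.

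Fabp5 and Acsl5 were the 2 genes with far more RNA in deficient cells. Fabp5 was at 220.4 FPKM in deficient cells and 15.2 FPKM in floxed cells. Acsl5 was at 14.8 FPKM in deficient cells and 0.82 FPKM in floxed cells. Fabp3, Fabp4, Acsl1 and Acsl3 were lower in deficient cells, by less than 2-fold on the log scale as deposited and by at least 2-fold relative to the median gene. In deficient cells the order of levels was Fabp5, Acsl5, Acsl4, Fabp4, Fabp3, Acsl1, Acsl3, Fabp7, Slc27a4 and Slc27a1. In floxed cells it was Fabp4, Fabp5, Fabp3, Acsl4, Acsl1, Acsl3, Fabp7, Acsl5, Slc27a4 and Slc27a1.

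Relative to the median gene, 2 of the 9 kept members were at least 2-fold higher (Fabp5 and Acsl5), where 10.3% of all kept genes were. On the lower side 4 of 9 were at least 2-fold lower (Fabp3, Fabp4, Acsl1 and Acsl3), where 11.6% of all kept genes were. As deposited, 2 members were at least 2-fold higher, against 42.1% of all genes, and 0 at least 2-fold lower, against 4.58%. Because the list was chosen with earlier results known, these shares are a background and not an independent comparison. The median of the 9 was -0.60 relative to the median gene and 0.26 as deposited, against 0 and 0.86 over all kept genes. Slc27a1 stayed under 1 FPKM in both libraries and was not kept. Acsl5 and Slc27a4 reached 1 FPKM in deficient cells only, so they passed the filter through that library alone. The deposited bounds of the most abundant transcript did not overlap for Fabp5, Acsl4 and Acsl5. For Acsl4 that transcript was at 11.8 FPKM in deficient cells and 6.49 FPKM in floxed cells, while the gene sums were closer, at 12.9 and 10.7 FPKM. With the floxed bounds multiplied by 1.81, those of Fabp3, Fabp4, Fabp5, Acsl1, Acsl3 and Acsl5 did not overlap. For neither comparison of bounds is the share of all kept genes given, so neither sets the members apart from other genes.

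**Figure D1:**
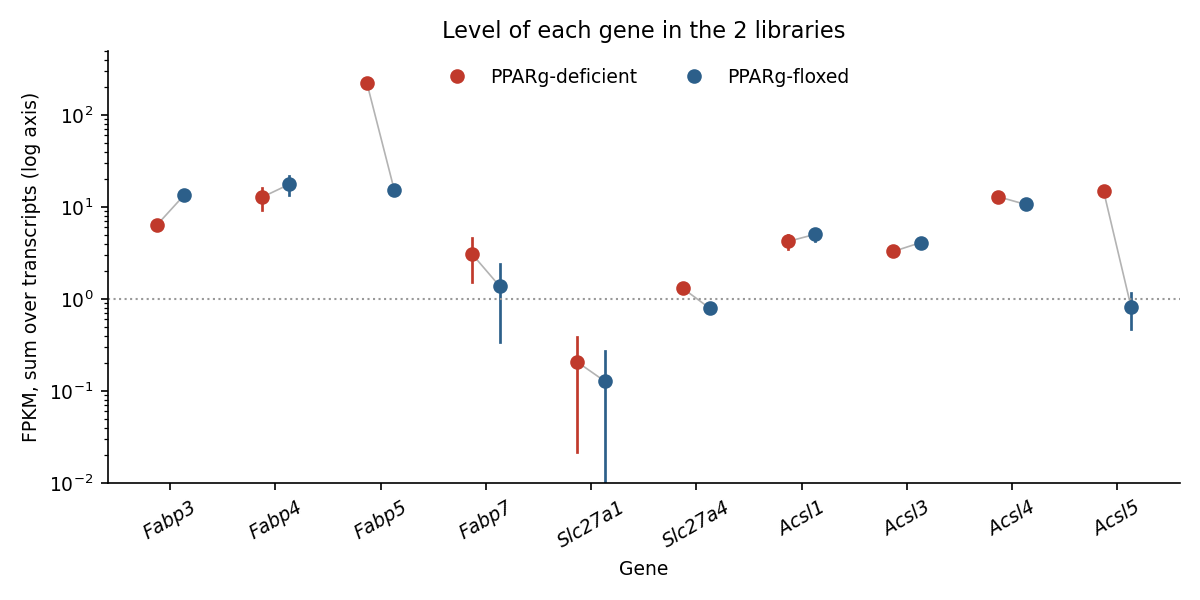
FPKM of each of the 10 genes (log axis) in PPARg-deficient cells (red) and PPARg-floxed cells (blue), 1 library each. Vertical lines are the deposited bounds, drawn only for genes with a single transcript and cut at the foot of the axis where the bound is 0, and the dotted line marks 1 FPKM. Fabp5 (220.4 against 15.2 FPKM) and Acsl5 (14.8 against 0.82 FPKM) show the widest gaps.

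Fabp5, the epidermal type FABP that is also made in many other tissues, lay on the plus strand of chromosome 3 from 10012581 to 10016610 (mm9, the build of the files, for all gene positions). Its log2 fold was 3.78 as deposited and 2.92 relative to the median gene, above 99.6% of kept genes. Its main transcript, which has 4 exons and the structure of the coding transcript Fabp5-201, was at 197 FPKM in deficient cells (deposited bounds 186 to 208) and 13.6 FPKM in floxed cells (10.6 to 16.5). Mean coverage of that transcript was 248 reads deep in deficient cells and 15.8 in floxed cells.

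A second Fabp5 transcript with 3 exons lacks the second exon, of 173 nt. It was at 23.6 FPKM in deficient cells (18.5 to 28.7) and 1.61 FPKM in floxed cells (0.24 to 2.98). It made up 10.7% of Fabp5 in deficient cells and 10.6% in floxed cells, so both transcripts differed by about the same factor. Mouse has several Fabp5-like copies. Of all 50-base words in its GENCODE transcript, 21.1% also occur in transcripts of other genes, 19.6% in Gm6166, so its level is uncertain to the extent that reads were split among the copies.

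Fabp4, the adipocyte FABP, lies on the minus strand of the same chromosome, from 10204343 to 10208576, 187732 nt beyond Fabp5. It was at 12.7 FPKM in deficient cells (9.21 to 16.3) and 17.6 FPKM in floxed cells (13.4 to 21.9), and these bounds overlap. The log2 fold was -0.44 as deposited and -1.30 relative to the median gene. Its level stood at percentile 63.8 of kept genes in deficient cells and percentile 80.4 in floxed cells. None of its 50-base words occurs in another gene.

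Pmp2, Fabp9 and Fabp12, further FABP genes of that cluster, were chosen for their position after their values were seen. Pmp2, the FABP of myelin, was at 0.83 FPKM in deficient cells and listed at 0 in floxed cells. Fabp9 and Fabp12 were listed at 0 in both libraries. Of these 5 FABP genes, Fabp5 and Fabp4 were the ones that reached 1 FPKM, and their log2 folds had opposite signs on both scales.

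Fabp3, the FABP of heart and skeletal muscle, lay on chromosome 4 from 129985940 to 129992707. It was at 6.32 FPKM in deficient cells and 13.4 FPKM in floxed cells, with a log2 fold of -0.97 as deposited and -1.83 relative to the median gene. As deposited, with the pseudocount, it was just short of the 2-fold limit. The main deposited transcript, with 84.0% of the gene in deficient cells and 79.0% in floxed cells, differs from Fabp3-201 in that the third exon has 36 nt in place of 102 nt, and no annotated transcript has its structure. It was at 5.31 FPKM in deficient cells (2.65 to 7.96) and 10.6 FPKM in floxed cells (6.74 to 14.4), bounds that overlap. Of the 50-base words of its GENCODE transcript, 37.3% occur in other genes, 29.2% in the pseudogene Fabp3-ps1, so its level is uncertain.

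Fabp7, the brain type FABP, lay on chromosome 10 from 57504729 to 57508256. It was at 3.07 FPKM in deficient cells (1.53 to 4.60) and 1.38 FPKM in floxed cells (0.34 to 2.43). The bounds overlap, and the log2 fold was 0.77 as deposited but -0.09 relative to the median gene, so the sign depends on the scaling.

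Within a library, the ratio of 2 genes does not depend on how the library was scaled. Fabp5 over Fabp4 was 17.3 in deficient cells and 0.86 in floxed cells, a 20.1-fold difference. Fabp5 over Fabp3 was 34.9 in deficient cells and 1.13 in floxed cells. Fabp4 over Fabp3 differed less, at 2.02 in deficient cells and 1.32 in floxed cells. Fabp5 thus held 90.9% of the summed FPKM of the 4 FABP genes in deficient cells and 31.9% in floxed cells, where Fabp4 held 37.1% and Fabp3 28.1%. The sum itself was 242 FPKM in deficient cells and 47.6 FPKM in floxed cells. It leaves out Fabp1, a FABP outside the list, which was at 9.68 FPKM in deficient cells and 14.5 FPKM in floxed cells.

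The acyl-CoA synthetase genes also had 1 member, Acsl5, with a larger share of their sum in deficient cells. Acsl5, whose enzyme is best known from intestine and liver, lay on chromosome 19 from 55327859 to 55371118 as a single transcript of 22 exons with the structure of Acsl5-201. It was at 14.8 FPKM in deficient cells (13.3 to 16.3) and 0.82 FPKM in floxed cells (0.47 to 1.17). The log2 fold was 3.12 as deposited and 2.26 relative to the median gene, above 99.0% of kept genes. Its mean coverage was 23.5 in deficient cells and 1.27 in floxed cells. The neighbour Zdhhc6, on the other strand and 1670 nt beyond the end of Acsl5, was at 45.7 FPKM in deficient cells and 12.5 FPKM in floxed cells. The GENCODE transcript of Acsl5 has 4243 nt against 3151 nt in the deposited one, and 5.39% of its 50-base words occur in Zdhhc6. The deposited Acsl5 and Zdhhc6 loci do not overlap.

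Acsl1, the main synthetase of fat, heart and liver, lay on chromosome 8 from 47556396 to 47621404 with 21 exons. It was at 4.23 FPKM in deficient cells (3.53 to 4.93) and 5.06 FPKM in floxed cells (4.28 to 5.84), bounds that overlap. The log2 fold was -0.21 as deposited and -1.07 relative to the median gene, just past the 2-fold limit. Acsl5 over Acsl1 was 3.50 in deficient cells and 0.16 in floxed cells, a 21.5-fold difference.

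Acsl5 and Acsl1 are shown with their upstream sequence because they carry out the same step, share most of their exon structure and yet differed in opposite directions relative to the median gene. Fabp3 is added as the member with the lowest relative fold. The 250 bases before the annotated start are printed from RefSeq (GRCm38.p6) on the strand of the gene, all 3 on the plus strand. Of the 10 genes, 8 had such a sequence, and Fabp4 and Fabp5 did not. Capitals mark CCAAT and GGGCGG on either strand.
Acsl5, chr19:55253119-55253368: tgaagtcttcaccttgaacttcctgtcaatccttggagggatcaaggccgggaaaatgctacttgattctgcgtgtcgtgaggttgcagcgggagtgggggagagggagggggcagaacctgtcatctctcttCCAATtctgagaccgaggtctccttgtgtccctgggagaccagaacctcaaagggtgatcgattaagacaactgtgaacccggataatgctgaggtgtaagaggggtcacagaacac
Acsl1, chr8:46470787-46471036: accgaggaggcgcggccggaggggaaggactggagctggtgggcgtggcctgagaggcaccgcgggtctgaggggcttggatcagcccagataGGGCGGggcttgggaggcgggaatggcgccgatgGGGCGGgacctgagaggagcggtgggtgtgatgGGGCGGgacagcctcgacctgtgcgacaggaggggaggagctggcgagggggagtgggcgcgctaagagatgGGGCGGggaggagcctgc
Fabp3, chr4:130308488-130308737: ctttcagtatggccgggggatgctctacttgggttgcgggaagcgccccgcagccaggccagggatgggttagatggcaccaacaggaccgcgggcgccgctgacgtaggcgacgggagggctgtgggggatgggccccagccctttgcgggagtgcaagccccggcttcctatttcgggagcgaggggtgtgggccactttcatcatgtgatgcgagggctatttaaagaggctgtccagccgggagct

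The Acsl1 sequence shown holds 72% GC, 20 CpG pairs and 4 copies of GGGCGG. RefSeq gives a second start for Acsl1, whose window (chr8:46490716-46490965) holds 48.4% GC, 2 CpG pairs, 2 copies of CCAAT on the other strand and no GGGCGG. The first is shown because it ends at the base before the start of Acsl1-201, the annotated transcript with the deposited structure. The Acsl5 sequence holds 52.8% GC, 7 CpG pairs and 1 CCAAT. The Fabp3 sequence holds 64.8% GC, 17 CpG pairs and neither motif. Over all 32851 such windows the medians were 52.4% GC and 6 CpG pairs, and 33.8% held CCAAT and 32.7% GGGCGG on either strand. PPARg with its partner RXR binds a direct repeat of the half-site AGGTCA with 1 base between the copies. The repeat written as AGGNCA, any base, AGGNCA, read on both strands, was in 0 of the 11 windows of the members and in 0.338% of all windows. With so low a share over all windows, 0 of 11 does not set the members apart from other genes. Bases outside the windows, and Fabp4 and Fabp5, were not searched, so whether PPARg binds near these genes was not tested. The half-site AGGTCA was in 1 of the 11 windows, that of Fabp7, and in 14% of all. The 11 windows come from 8 genes, with more than 1 window each for Acsl1 and Slc27a1. For the Slc27a1 windows, the first bases after the start were not found in a transcript. TATAAA was in 0 of the 11 windows and in 12.4% of all. Only that exact word was searched, so near forms, such as tatttaaa in the Fabp3 sequence, were not counted.

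**Figure D2:**
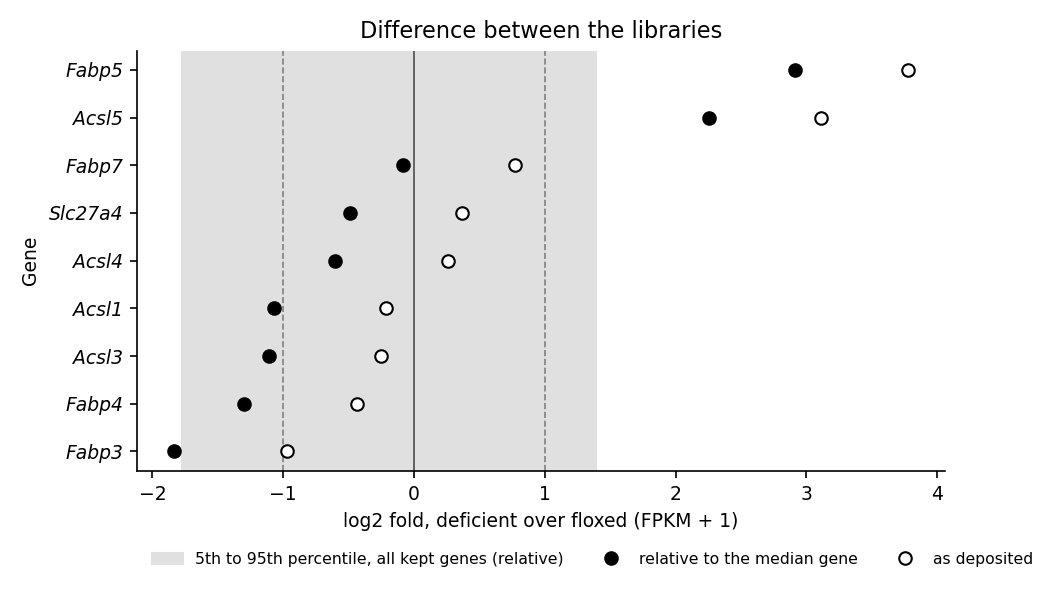
Log2 fold of the 9 kept genes, PPARg-deficient over PPARg-floxed, relative to the median gene (filled) and as deposited (open). Dashed lines mark 2-fold and the grey band the 5th to 95th percentile of relative folds over all kept genes. The band applies to the filled points only. Among these, Fabp5 and Acsl5 lie right of the band, and Fabp3 (-1.83 relative) lies just left of it.

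Acsl3, a synthetase of the endoplasmic reticulum and lipid droplets, lay on chromosome 1 from 78654400 to 78704318. It was at 3.29 FPKM in deficient cells and 4.10 FPKM in floxed cells, with a log2 fold of -0.25 as deposited and -1.11 relative to the median gene. A 15-exon transcript with the structure of Acsl3-205 was at 1.27 FPKM in deficient cells (0.81 to 1.74) and 1.83 FPKM in floxed cells (1.29 to 2.36). A 6-exon transcript of the 3' part was at 1.37 FPKM in deficient cells (0.66 to 2.08) and 2.27 FPKM in floxed cells (1.38 to 3.16). Both pairs of bounds overlap.

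A 14-exon transcript went the other way. It has the structure of Acsl3-203, skips an exon of 418 nt and carries 1704 coding nt in place of 2160. It was at 0.65 FPKM in deficient cells (0.26 to 1.04) and listed at 0 in floxed cells, with an upper bound of 0.07 FPKM. The same locus held transcripts of the gene Utp14b, which starts at the same first exon, and these were left out of the Acsl3 sum. The larger of them was at 0.67 FPKM in deficient cells and 0.54 FPKM in floxed cells.

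Acsl4, a synthetase that prefers arachidonic acid and other polyunsaturated fatty acids, lay on the minus strand of chromosome X from 138752534 to 138825078. It was at 12.9 FPKM in deficient cells and 10.7 FPKM in floxed cells. The log2 fold was 0.26 as deposited and -0.60 relative to the median gene, so its sign depends on the scaling. The transcript with the structure of Acsl4-203 was at 11.8 FPKM in deficient cells (10.7 to 12.8) and 6.49 FPKM in floxed cells (5.58 to 7.40). The Acsl4-202 form was near 0 in deficient cells (upper bound 0.04) and at 2.86 FPKM in floxed cells (2.19 to 3.54). The deposited forms differ in 1 exon, of 240 nt in Acsl4-203 and 237 nt in Acsl4-202, and both carry 2010 coding nt, so only reads across that 3-nt difference can tell them apart. The Acsl4-201 form, whose exon of 530 nt lengthens the coding part to 2133 nt, was at 1.18 FPKM in deficient cells (0.75 to 1.61) and 1.31 FPKM in floxed cells (0.86 to 1.77).

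Among the 4 ACSL genes, Acsl5 held 42.0% of the summed FPKM in deficient cells and 3.99% in floxed cells. Acsl4 held 36.7% in deficient cells and 51.7% in floxed cells, Acsl1 12.0% and 24.5%, and Acsl3 9.33% and 19.9%. The sum was 35.3 FPKM in deficient cells and 20.7 FPKM in floxed cells. Ratios among the 3 other genes differed less. Acsl1 over Acsl3 was 1.29 in deficient cells and 1.23 in floxed cells, and Acsl4 over Acsl1 was 3.06 in deficient cells and 2.11 in floxed cells.

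**Figure D3:**
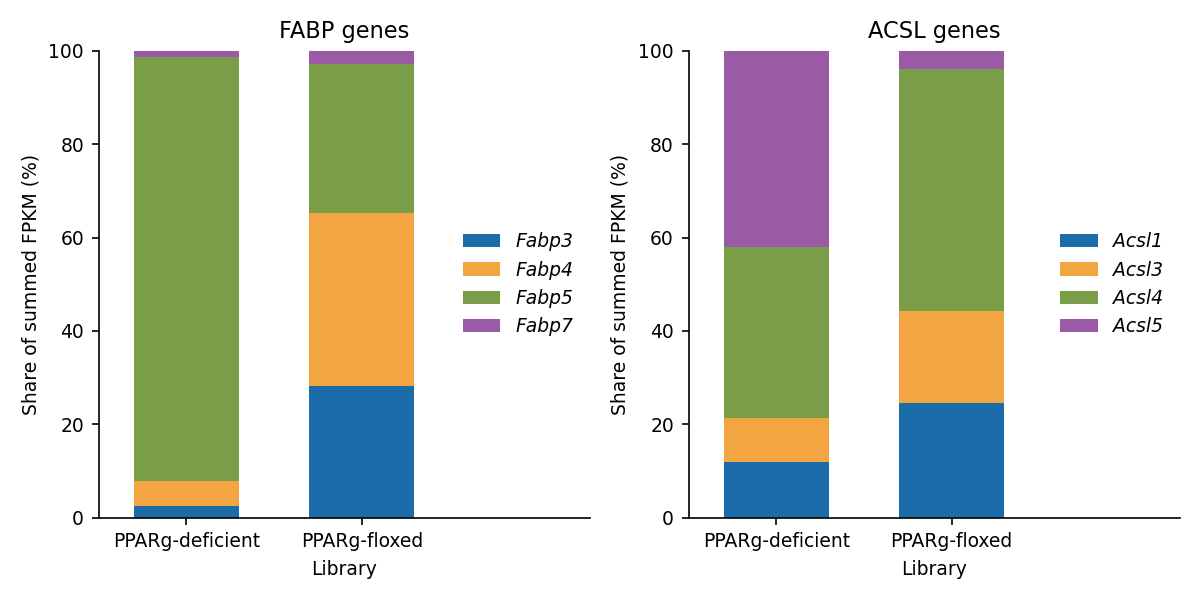
Share of the summed FPKM held by each of the 4 FABP genes (left) and 4 ACSL genes (right) described here, in percent, for PPARg-deficient and PPARg-floxed cells, 1 library each. Other genes of these families, Fabp1 among them, are not counted. Fabp5 takes 90.9% in deficient cells and 31.9% in floxed cells, and Acsl5 takes 42.0% and 3.99%.

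The transport genes had the lowest sum of the 3 families, 1.52 FPKM in deficient cells and 0.92 FPKM in floxed cells. Slc27a4 over Slc27a1 was 6.35 in deficient cells and 6.18 in floxed cells. Slc27a4 (FATP4), the broadly made transporter, lay on chromosome 2 from 29658200 to 29673163. It was at 1.31 FPKM in deficient cells and 0.79 FPKM in floxed cells, with a log2 fold of 0.37 as deposited and -0.49 relative to the median gene, so its sign depends on the scaling. Most of it was a 9-exon transcript that starts inside the gene, at 1.14 FPKM in deficient cells (0.71 to 1.56) and 0.57 FPKM in floxed cells (0.25 to 0.89). The 13-exon transcript with the structure of Slc27a4-201, which codes for the transporter, was at 0.17 FPKM in deficient cells (0 to 0.36) and 0.22 FPKM in floxed cells (0 to 0.48).

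Slc27a1 (FATP1), the transporter of muscle and fat, lay on chromosome 8 from 74092826 to 74110607. It was at 0.21 FPKM in deficient cells (0.02 to 0.39) and 0.13 FPKM in floxed cells (0 to 0.28). At a mean coverage of 0.27 in deficient cells and 0.19 in floxed cells, a difference was not detectable at this depth.

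**Figure D4:**
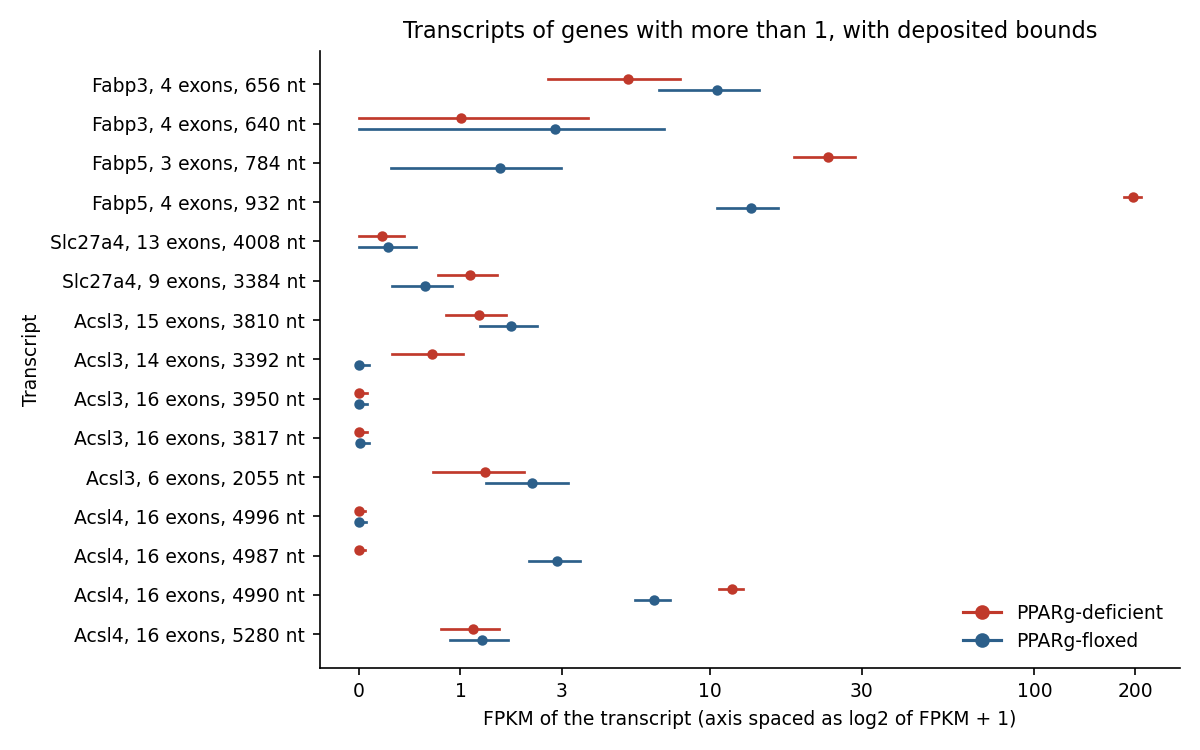
FPKM of each deposited transcript of the 5 genes with more than 1, in PPARg-deficient cells (red, upper) and PPARg-floxed cells (blue, lower), with the deposited bounds as horizontal lines. The axis is spaced as log2 of FPKM plus 1. The bounds are apart for both Fabp5 transcripts, for Acsl4-203 (4990 nt), Acsl4-202 (4987 nt) and Acsl3-203 (3392 nt).

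The deposited structures show how the families are built. All 4 FABP genes have the same pair of internal exons, of 173 and 102 nt. Acsl1 and Acsl5 share a run of 17 consecutive internal exons of identical length, Acsl3 and Acsl4 a run of 12, and Slc27a1 and Slc27a4 a run of 8. Between families, the longest run was 1. Despite the shared exon plan, no 50-base word was common to any pair of the 10 genes, so reads of that length that match exactly can be told apart among them. Acsl1 and Acsl5, the pair with the longest common run, had relative log2 folds of -1.07 and 2.26.

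Genes of the wider pathway were taken from lists by function. Beside the counts below, 10.3% of all kept genes were at least 2-fold higher and 11.6% lower relative to the median gene. As deposited these shares were 42.1% and 4.58%. Of 11 other lipid and retinoid carriers, plotted as other fatty acid binding proteins, 3 were kept, 2 at least 2-fold higher and 1 lower relative to the median gene (2 and 0 as deposited). Those higher were Crabp1, at 244 FPKM in deficient cells and 2.16 FPKM in floxed cells, and Crabp2, at 193 FPKM and 36.1 FPKM. Both belong to the same protein superfamily as the FABPs but carry retinoic acid. The lower one was Fabp1, the liver FABP, at 9.68 FPKM in deficient cells and 14.5 FPKM in floxed cells (relative log2 fold -1.40).

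Of 11 other uptake genes 5 were kept, 0 higher and 1 lower (2 and 1 as deposited). The lower one was Lpl, the lipase that frees fatty acids from circulating lipoproteins, at 2.78 FPKM in deficient cells and 176 FPKM in floxed cells. Cd36, a fatty acid receptor of fat cells named after its values were seen, was listed at 0 in deficient cells and at 0.17 FPKM in floxed cells. Of 11 other acyl-CoA synthetases 2 were kept and 0 passed 2-fold relative to the median gene (1 higher as deposited). These were Aacs, which activates acetoacetate, at 7.15 FPKM in deficient cells and 1.56 FPKM in floxed cells, and Acss2, which activates acetate, at 1.06 and 0.63 FPKM.

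The lists of downstream steps, from acyl-CoA binding to droplets, had relative medians from -0.37 to 0.10. The 25th and 75th percentiles of all kept genes were -0.46 and 0.50. Of 12 acyl-CoA binding and thioesterase genes 10 were kept and 0 passed 2-fold, with a relative median of 0.10 (4 higher and 0 lower as deposited). Dbi, the acyl-CoA binding protein, was at 795 FPKM in deficient cells and 477 FPKM in floxed cells, and Acot13, a thioesterase, at 155 and 67.9 FPKM. Of 16 esterification genes 12 were kept, 0 higher and 1 lower, with a relative median of -0.19 (2 and 0 as deposited). The lower one was Soat1, which makes cholesterol esters, at 23.8 FPKM in deficient cells and 43.2 FPKM in floxed cells.

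Of 12 genes for the entry to oxidation 11 were matched (not Cpt1b) and 11 kept, 0 higher and 2 lower, with a relative median of -0.37 (3 and 0 as deposited). The lower ones were Acadm, a mitochondrial acyl-CoA dehydrogenase, at 47.6 FPKM in deficient cells and 72.9 FPKM in floxed cells, and Abcd2, a peroxisomal transporter, at 0.82 and 1.51 FPKM. Of 12 droplet and lipolysis genes 11 were matched (not G0s2) and 4 kept and 0 passed 2-fold (2 higher as deposited). Plin2, a droplet coat protein, was at 117 FPKM in deficient cells and 125 FPKM in floxed cells, and Plin3 at 22.4 and 5.47 FPKM. Of 6 nuclear receptors 2 were kept, Pparg and Rxra, and 1 was lower, Pparg. Rxra, the partner of PPARg, was at 2.26 FPKM in deficient cells and 1.20 FPKM in floxed cells.

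**Figure D5:**
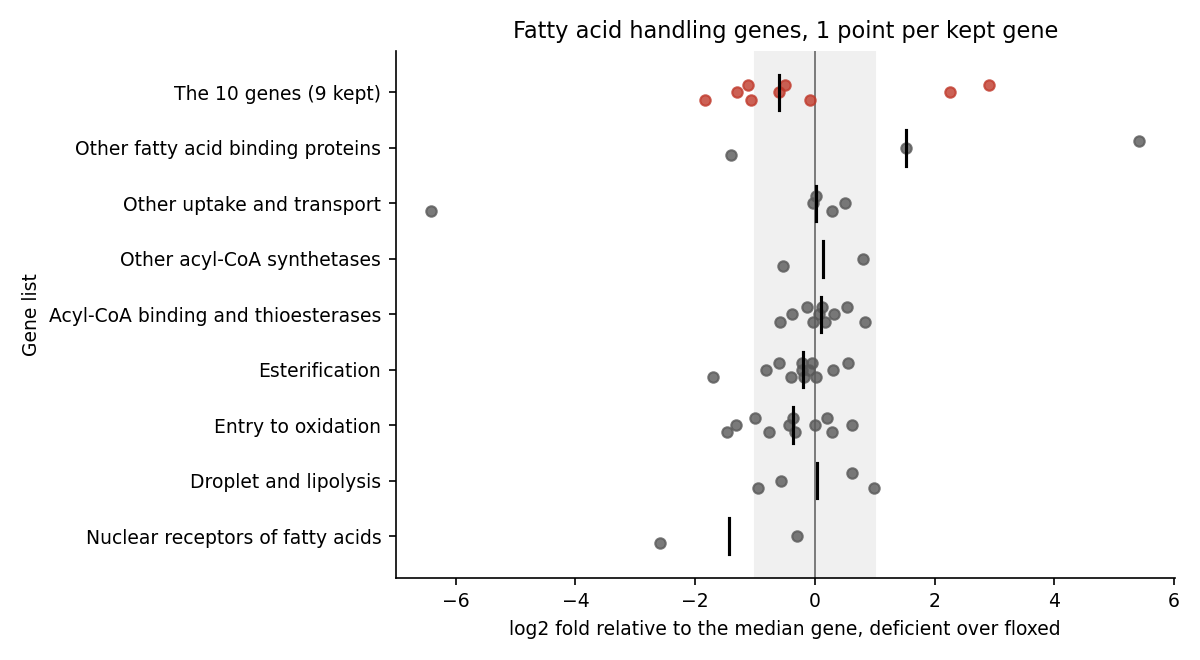
Log2 fold relative to the median gene, PPARg-deficient over PPARg-floxed, for each kept gene of the 10 (red) and of each pathway list (grey). Black bars are medians and the shaded band is within 2-fold. Most genes of the downstream steps lie in the band, Fabp5, Acsl5, Crabp1 and Crabp2 lie right of it, and Lpl lies farthest left.

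Markers of other cells that make FABPs were read in the same libraries, where fewer cells of a type and less RNA per cell cannot be told apart. Of 8 matched fat cell markers 2 were kept, and their sum was 2.89 FPKM in deficient cells and 187 FPKM in floxed cells. Lpl made up most of it. Adipoq, the adiponectin gene, was at 0.10 FPKM in deficient cells and 9.87 FPKM in floxed cells, and Plin1, Lep and Retn were listed at 0 in both libraries. The part of these and the cells below in the values of the 10 genes was not tested.

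Of 7 matched macrophage markers 2 were kept, with a sum of 14.9 FPKM in deficient cells and 6.11 FPKM in floxed cells, most of it Cd14, and Ptprc, Adgre1 and Itgam were listed at 0 in both. None of 6 endothelial markers was kept, with a sum of 0.12 FPKM in deficient cells and 0.02 FPKM in floxed cells. Of 6 Schwann and glial markers 1 was kept, with a sum of 0.45 FPKM in deficient cells and 3.57 FPKM in floxed cells, nearly all of it S100b, and Sox10 and Gfap were listed at 0 in both. Of 8 muscle markers 2 were kept, with a sum of 4.46 FPKM in deficient cells and 0.27 FPKM in floxed cells, and Myh1, Myh2, Myh6 and Ckm were listed at 0 in both. The kept ones were Tnnt2, at 2.19 FPKM in deficient cells and listed at 0 in floxed cells, and Acta1, at 2.09 and 0.09 FPKM. Of 4 keratinocyte markers 2 were kept, with a sum of 4.32 FPKM in deficient cells and 5.65 FPKM in floxed cells. The kept ones were Trp63, at 0.09 FPKM in deficient cells and 4.19 FPKM in floxed cells, and Krt10, at 4.03 and 1.40 FPKM. Krt5 was at 0.05 FPKM in deficient cells and 0.06 FPKM in floxed cells, and Krt14 at 0.15 FPKM in deficient cells and 0 in floxed cells.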

How the data were processed

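Per the file headers, the authors deposited Cufflinks output that lists FPKM per transcript, with lower and upper confidence bounds and coverage, in 1 file per library. Per the submitters' processing notes, the build was mm9 and the tools included Cufflinks 2.0.2, Cuffdiff 2.0.2 and TopHat2 2.0.5, with no order of use. Annotation, filters and strand handling are not stated in the sources at hand, and the files hold no read counts, so the number of reads behind a value is unknown.

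Both files list the same 45543 transcripts in 25707 loci. Loci were named by matching ordered intron and internal exon lengths to GENCODE M21 on the same chromosome and strand, with no coordinate converted. This named 19050 loci, 17730 by a whole chain of at least 2 introns, 358 by a run of 3 lengths and 962 by a single intron with a terminal exon. On a wrong chromosome, 0 of 36924 whole chains and 3 of 2883 single introns matched. Genes without introns cannot be named in this way. FPKM was summed per gene, without transcripts that match another gene, and genes under 1 FPKM in both libraries or with no transcript of 300 nt were dropped. Calls are by size, at 2-fold. The members, lists and alternatives were chosen with earlier results of these data known. Named genes are the 10 members, Pparg and, from each pathway list, up to 4 kept genes past 2-fold relative to the median gene or else the 2 with the highest FPKM. The steps were tested on simulated data, which checks the code only. Such a check does not bear on how much cultures differ, so it lends no support to the 2-fold calls. Rxra, Cd36, the genes next to members and single markers were named after their values were seen. A planned comparison of protein sequences was not run. Python 3.11.15, numpy 2.4.6, pandas 2.3.3 and matplotlib 3.10.9 were used.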

Additional observations from a re-analysis of the deposited data

How the results depend on the processing

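With 1 library per group, no difference has a replicate check, leaving out a replicate was not possible, and the deposited bounds describe the estimate within a library. No paired analysis was possible because each group has 1 library and no test was run. Fabp5 and Acsl5 were the 2 members at least 2-fold higher in all 15 alternatives, with log2 folds from 2.57 to 3.78 for Fabp5 and from 1.33 to 3.12 for Acsl5. Every alternative reused the same 2 libraries, and Acsl5 passed the filter through deficient cells alone. Keeping a call over settings is therefore no independent support for it. Of all kept genes, 10.3% were higher and 11.6% lower in the main setting, and 42.1% and 4.58% as deposited. For the other settings the share of all genes is not given. The counts there show only which members kept their call. Of the 4 members at least 2-fold lower, the count depended on the setting. It was 0 as deposited, at a 4-fold limit and with deposited bounds required not to overlap. It was 1 (Fabp3) with a pseudocount of 5 FPKM and with no filter on low values, where centring moved folds by -0.03 on the log2 scale. It was 2 (Fabp3 and Fabp4) with TPM over all transcripts. It was 5 at a 1.5-fold limit, which adds Acsl4, and 3 or 4 in the other alternatives. It was 4 when the floxed bounds were scaled by the median fold before they were compared, an alternative chosen after seeing the data, as was counting the Utp14b transcripts in. Log2 folds of Fabp3 (-2.21 to -0.97), Fabp4 (-1.60 to -0.44), Acsl1 (-1.39 to -0.21) and Acsl3 (-1.45 to -0.25) were negative in each alternative that gave a value. Those of Acsl4 (-0.86 to 0.26), Fabp7 (-0.10 to 0.77) and Slc27a4 (-0.49 to 0.37) took both signs. The cause of these differences between settings was not tested.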
